A study of Mus musculus with 14 samples.

Results

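Expression of 10 genes of the marrow reticular niche was examined in cultured skeletal clones with and without p53. They were the niche factors Cxcl12, Kitl, Il7 and Vcam1, the receptors Lepr and Kit, and the transcription factors Foxc1, Ebf1, Ebf2 and Ebf3. The genes were taken by symbol from a list drawn up with earlier results of these data known, and were 10 of the 55427 genes in the TPM table. All 10 were in the count table of 30503 genes, and 9 of them were among the 17358 genes with enough counts to be tested. Ebf2 was not.

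Reticular cells are perivascular stromal cells of the bone marrow that hold and feed hematopoietic stem cells and lymphoid progenitors. They do so through the chemokine CXCL12, the KIT ligand stem cell factor (encoded by Kitl), interleukin 7 and the adhesion molecule VCAM1. The leptin receptor marks these cells in adult marrow, FOXC1 and EBF3 maintain their niche function, and EBF1 and EBF2 belong to the same helix-loop-helix family as EBF3. KIT is the receptor tyrosine kinase that binds stem cell factor. It is best known in hematopoietic stem cells, mast cells and melanocytes and as an oncogene.

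Bulk RNA-seq had been performed on 14 single-cell-derived clones of tdTomato+ skeletal cells from femur bone marrow. All mice carried Fgfr3-creER, a tamoxifen-inducible Cre under Fgfr3 control from a PAC transgene, and the R26R(tdTomato/+) reporter, and all had been given tamoxifen at postnatal day 21. The first group was 5 Fgfr3-WT clones isolated at P23, with intact Trp53. The others, called Fgfr3-p53 cKO, were 5 clones taken at P28 and 4 clones from 4-month-old mice (P4M), both of genotype Fgfr3-creER; Trp53fl/fl; R26R(tdTomato/+). Fgfr3-WT and P28 clones were at passage 8 and P4M clones at passage 6 to 8. The 3 groups are called WT, P28 and P4M below, and a clone is named by its group and a running replicate number. Each library is 1 clone, and the labels do not say how many mice the clones came from, so p values measure the spread between clones. All WT libraries came from 1 library submission and all cKO libraries from another, so genotype and submission cannot be told apart in any comparison with WT. No WT clone was isolated at P28 or at 4 months, so genotype and age at isolation cannot be told apart there either. The paper also reports that p53-deficient clones grew faster than WT clones and that a larger share of them survived passaging. Equal passage numbers thus do not mean equal time in culture, and time in culture and survival cannot be told apart from genotype.

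Libraries held 25688946 to 38958693 counts in WT and 37606033 to 52857424 counts in the cKO groups. Trp53, the deleted gene, was at 49.9 to 68.2 CPM (counts scaled by library size) in the WT clones and at 1.72 to 2.84 CPM in the cKO clones, so every library matched the genotype of its label. The P28 and P4M clones overlapped, so the age of the label was not checked by it. The clones were checked against marker lists of other cells. Of 12 hematopoietic markers, only Lyz2 reached 1 TPM (a transcript level scaled by gene length and library) in any clone, and Ptprc was at most 0.07 TPM. The 8 endothelial markers summed to at most 12.7 TPM, the 6 adipocyte markers to 3.64 to 418.2 TPM and the 9 endosteal stromal markers to 332 to 670.3 TPM. Fabp4 made up nearly all of the highest adipocyte sum (417.5 TPM in P28 replicate 5), and Adipoq was at most 0.2 TPM in any clone. Of the 9 endosteal markers, 1 was called in all cKO clones against WT by the test described below. It was Fgfr3, which was lower (log2 fold change -2.35, adjusted p = 0.0067, edgeR). The 7 osteoblast markers summed to 18.8 to 449.8 TPM in WT, 4105 to 7139 TPM in P28 and 3819 to 16769 TPM in P4M. The 6 chondrocyte markers summed to 219 to 5794 TPM in WT, 66.0 to 479.2 TPM in P28 and 8.09 to 16.9 TPM in P4M. The 8 smooth muscle and pericyte markers summed to 27.9 to 111.1 TPM in WT, 1293 to 3077 TPM in P28 and 334.5 to 632.3 TPM in P4M. Most of the sums in the cKO clones was Acta2 (1198 to 3002 TPM in P28 and 288 to 472 TPM in P4M), so they do not stand for the list as a whole. Skeletal markers were thus present in every clone, but Col1a1, the main bone collagen, was as low as 0.30 TPM in WT replicate 4. The part of these marker differences in the results that follow was not tested.

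In P28 against WT, Lepr, Ebf1 and Ebf3 were higher and Foxc1 was lower. In P4M against WT, Lepr and Kit were higher and Foxc1 was lower. Genes were tested over all 17358 genes with the quasi-likelihood test of edgeR, and called at a Benjamini-Hochberg adjusted p below 0.05. Of the 9 genes tested, 4 were called in P28 against WT, where 38.9% of all genes tested were called. In P4M against WT, 3 of 9 were called, beside 45.9% of all genes. With all 9 cKO clones against WT, 4 of 9 were called (Lepr, Kit and Ebf3 higher, Foxc1 lower), beside 48.8% of all genes. These shares were near those of all genes, and the 3 comparisons share the WT clones. In P4M against P28, 0 of 9 were called by edgeR, beside 7.22% of all genes. There, 4 genes (Lepr, Kit, Foxc1 and Ebf1) had an unadjusted p below 0.05, and DESeq2 also called 0 of them, while limma on TPM values called 1, Ebf1. The counts moved with single clones. Without WT replicate 5 the counts against WT were 6 in P28, 5 in P4M and 6 in all cKO clones, and without P4M replicate 3 the count in P4M was 5. Without WT replicate 2, WT replicate 4 or P28 replicate 3 the count in P28 was 2, and without P28 replicate 4, where Kit did not pass the filter, the count in P4M was 2.

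**Figure D1:**
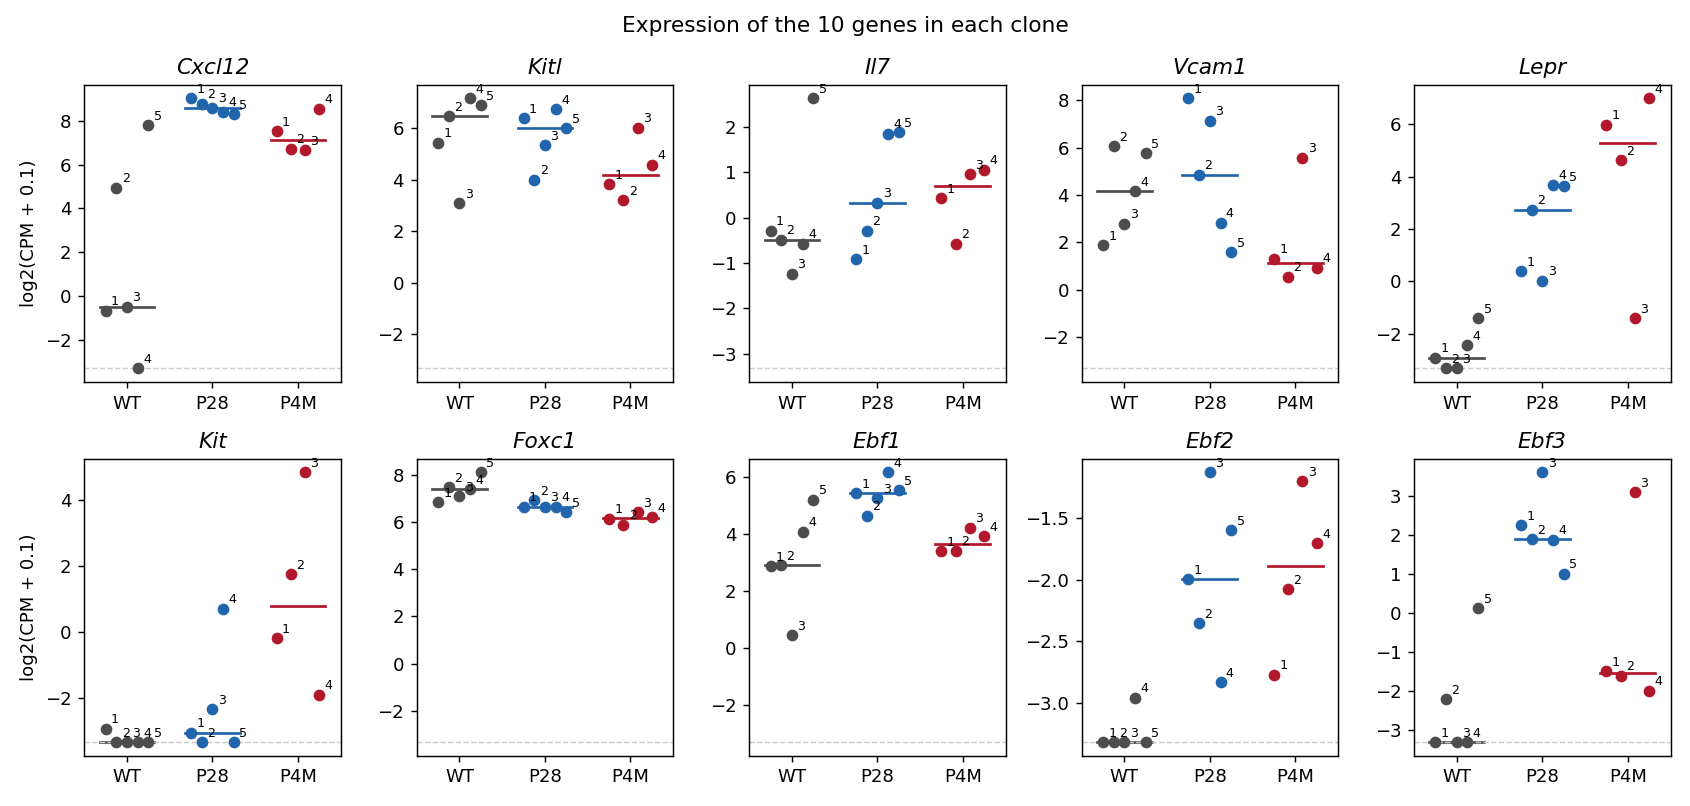
Expression of the 10 genes in each clone, as log2(CPM + 0.1) on the vertical axis (scales differ between panels), with the replicate number beside each point. Horizontal lines are group medians and the dashed line is a count of 0. Lepr and Ebf3 in P28 lie above every WT clone, and P4M replicate 3 lies apart from the other P4M clones for Lepr, Vcam1, Ebf3 and Kit.

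Cxcl12 (ENSMUSG00000061353, mm10 chromosome 6, 117168535 to 117181367) encodes the chemokine that retains hematopoietic cells in marrow. In the WT clones 1 to 5 it was at 0.521, 30.6, 0.607, 0 and 222 CPM. In the P28 clones 1 to 5 it was at 520.4, 443, 389, 341 and 317 CPM. In the P4M clones 1 to 4 it was at 183, 106, 100.3 and 376 CPM. All 5 P28 clones were above every WT clone, while the P4M clones overlapped with WT because of the 1 high WT clone, replicate 5. In bulk clones, fewer cells with a transcript and less RNA per cell cannot be told apart, so these levels are averages over a clone. The spread among WT clones was wide, with an SD of log2 CPM of 4.87, larger than that of 99.9% of the genes tested, against 0.29 in P28. Cxcl12 was not called in P28 (log2 fold change 2.99, SE 1.46, adjusted p = 0.121, edgeR) or in P4M (1.92, SE 1.45, adjusted p = 0.299, edgeR). This depended on WT replicate 5. Without it, the log2 fold changes were 5.67 (adjusted p = 0.00938, edgeR) in P28 and 4.59 (adjusted p = 0.0188, edgeR) in P4M. Over all alternatives the adjusted p ranged from 0.00128 to 0.196 in P28 and from 0.0114 to 0.514 in P4M, with the lowest from limma on log2(TPM + 1). P4M and P28 did not differ by the test (log2 fold change -1.07, 95% interval -4.24 to 2.10, edgeR).

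Kitl (ENSMUSG00000019966, chromosome 10, 100015630 to 100100416) encodes stem cell factor. It was at 43.1, 87.7, 8.45, 142 and 119 CPM in WT replicates 1 to 5, at 83.7, 15.9, 40.3, 107 and 63.5 CPM in P28 replicates 1 to 5, and at 14.03, 9.19, 64.8 and 23.9 CPM in P4M replicates 1 to 4. The 3 groups overlapped, and 3 of the 4 P4M clones were below all but 1 of the WT clones. The log2 fold change was -0.37 (95% interval -1.87 to 1.13) in P28 and -1.52 (95% interval -3.17 to 0.13, adjusted p = 0.121, edgeR) in P4M, and neither was called. In P4M it was called lower without P4M replicate 3 (-2.34, adjusted p = 0.0358, edgeR) or without WT replicate 3 (-1.81, adjusted p = 0.0419, edgeR), and over all alternatives its adjusted p ranged up to 0.252.

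Il7 (ENSMUSG00000040329, chromosome 3, 7569994 to 7613760) encodes a cytokine that B and T cell progenitors need. Its level was low, at 0.717, 0.612, 0.324, 0.569 and 6.06 CPM in WT replicates 1 to 5. It was at 0.430, 0.717, 1.15, 3.49 and 3.59 CPM in P28 replicates 1 to 5 and at 1.25, 0.569, 1.84 and 1.97 CPM in P4M replicates 1 to 4. WT replicate 5 was above all other clones. The log2 fold change was 0.18 (95% interval -1.59 to 1.96) in P28 and -0.23 (95% interval -2.12 to 1.66) in P4M, so changes of either sign remained possible. Without WT replicate 5, Il7 was called higher in P28 (1.74, adjusted p = 0.0479, edgeR), and over all alternatives its adjusted p in P28 ranged up to 0.989. An antisense gene on the opposite strand, Gm16685, shares 105 exonic bases with Il7, and strand was not stated for the counting.

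Vcam1 (ENSMUSG00000027962, chromosome 3, 116109949 to 116129688) encodes the adhesion molecule that binds integrin α4β1 on hematopoietic cells. It was at 3.55, 66.1, 6.80, 17.9 and 54.3 CPM in WT replicates 1 to 5. In P28 replicates 1 to 5 it was at 269, 29.0, 141, 6.97 and 2.89 CPM. In P4M replicates 1 to 4 it was at 2.38, 1.37, 47.1 and 1.80 CPM. Thus 2 P28 clones were above every WT clone and 1 was below every WT clone, and 3 of the 4 P4M clones were below every WT clone while P4M replicate 3 was within the WT range. The spread of Vcam1 within P28 (SD of log2 CPM 2.77) and within P4M (2.36) exceeded that of 99.2% and 99.1% of the genes tested in these groups. No difference was called by edgeR (P28 against WT 1.60, adjusted p = 0.351; P4M against WT -1.17, adjusted p = 0.513; P4M against P28 -2.77, adjusted p = 0.254). Without P4M replicate 3, Vcam1 was called lower in P4M against WT (-4.00, adjusted p = 0.0493, edgeR). The adjusted p in that comparison reached 0.744 over the alternatives.

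Lepr (ENSMUSG00000057722, chromosome 4, 101717404 to 101815352) encodes the leptin receptor, the usual marker of adult marrow reticular cells. It had 1, 0, 0, 3 and 7 counts in WT replicates 1 to 5, which is at most 0.277 CPM. In P28 replicates 1 to 5 it was at 1.205, 6.53, 0.914, 12.8 and 12.4 CPM. In P4M replicates 1 to 4 it was at 62.6, 24.5, 0.277 and 126 CPM. All 5 P28 clones were above every WT clone, and 3 of the 4 P4M clones were above every P28 clone, whereas P4M replicate 3, at 14 counts, was at the level of the highest WT clone. Lepr was called higher in P28 (log2 fold change 6.38, SE 1.47, adjusted p = 0.00435, edgeR) and in P4M (9.36, SE 1.60, adjusted p = 0.000547, edgeR). Lepr passed the filter through the cKO clones, since 1 WT, 5 P28 and 4 P4M clones exceeded the filter level of 0.241 CPM. The call in P4M held in all 20 alternatives that gave a value, with adjusted p up to 0.00646. That in P28 was lost with limma on log2(TPM + 1), where the pseudocount exceeds the level of most clones (1.57, adjusted p = 0.129), and held in the other 19. P4M against P28 was not called (2.98, SE 1.14, adjusted p = 0.122, edgeR) unless P4M replicate 3 was left out (3.40, adjusted p = 0.0484, edgeR), and its adjusted p reached 0.318 without P4M replicate 4.

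Osteoblast markers differed among the cKO clones, and not all in the order of Lepr. Sp7, a transcription factor of osteoblasts, was at 175 TPM in P28 replicates 4 and 5, the P28 clones with the most Lepr, and at 1.98 to 5.54 TPM in P28 replicates 1 to 3. Alpl (1358 and 674 TPM), Bglap (852 and 954 TPM) and Ibsp (405 and 135 TPM) were also high in replicates 4 and 5. In replicates 1 to 3 they were at 7.7 to 39.5, 1.71 to 4.47 and 0.47 to 1.34 TPM. Runx2 was at 59.9 and 56.3 TPM in replicates 4 and 5 and at 34.35 to 41.3 TPM in replicates 1 to 3. Col1a1, in contrast, was at 6206 TPM in P28 replicate 1, which had little Lepr, and at 4288 TPM in replicate 4. Dmp1 was at 0.29 to 2.47 TPM in the P28 clones and was highest in replicate 3. The summed list in P28 replicates 1 to 5 was 6278, 4105, 6036, 7139 and 7078 TPM, and most of it was Col1a1 (6206, 4023, 5982, 4288 and 5082 TPM). In P4M replicates 1 to 4 it was 9905, 16769, 3819 and 6641 TPM, so it was lowest in replicate 3, as was Lepr, but highest in replicate 2, whereas Lepr was highest in replicate 4. Each marker of the list was also lowest in replicate 3 of the P4M clones, with Dmp1 at 0.97 TPM there. Alpl and Dmp1 were highest in replicate 4 (856 and 100.2 TPM) and the other markers in replicate 2. The part of osteoblast composition in the level of Lepr was not tested.

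Kit (ENSMUSG00000005672, chromosome 5, 75574916 to 75656722) had 1 count in WT replicate 1 and 0 counts in the other 4 WT clones. A count of 0 there allows up to 3 counts, or 0.0854 to 0.121 CPM, for counting error only. In P28 replicates 1 to 5 there were 1, 0, 5, 76 and 0 counts, and replicate 4 reached 1.53 CPM. In P4M replicates 1 to 4 there were 34, 143, 1436 and 9 counts, or 0.784, 3.25, 28.4 and 0.169 CPM. Every P4M clone was above every WT clone, and P4M replicate 3 alone held 88.5% of the 1622 Kit counts of that group. Per read sequenced, the P4M clones held 1226 times the Kit counts of the WT clones, with a 95% counting interval of 220 to 48460. Without P4M replicate 3 the ratio was 191 (33.8 to 7578). In P28 it was 55.0 (9.59 to 2197), and there replicate 4 alone held 76 of the 82 counts. The size of the change was thus poorly fixed, by the 1 WT count and by the spread between cKO clones. Kit was called higher in P4M (adjusted p = 0.00375, edgeR), with adjusted p values from 7.47e-05 to 0.0447 over 18 alternatives. In all cKO clones it was called higher (adjusted p = 0.0112, edgeR), except with limma on log2(TPM + 1) (adjusted p = 0.155, the highest over the alternatives). In P28 it was not called (adjusted p = 0.0852, edgeR), except by DESeq2 (adjusted p = 0.0454), and the adjusted p over the alternatives reached 0.805. P4M against P28 was not called (log2 fold change 4.59, SE 1.57, adjusted p = 0.0889, edgeR), and without P4M replicate 3 the value fell to 2.06 (adjusted p = 0.378, edgeR, the highest over the alternatives). Kit passed the filter through the cKO clones, since 0 WT, 1 P28 and 3 P4M clones exceeded the filter level of 0.241 CPM. It was among the genes that the study selected on these clones to show differences, so its direction is not independent evidence.

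Mast cells and melanocytes normally carry KIT, and their markers were examined in every clone. The 8 mast cell markers summed to at most 0.18 TPM in any clone, and Cpa3, Tpsb2, Mcpt4, Fcer1a and Ms4a2 were at 0 in all 14. Of the 7 melanocyte markers, Dct, Tyr and Sox10 were at 0 in all cKO clones, and the list summed to 7.19 to 60.1 TPM in WT, 0.90 to 2.25 TPM in P28 and 0.70 to 1.87 TPM in P4M. Most of the WT sum was Mlana, at 4.86 to 58.3 TPM there and at most 0.70 TPM in the cKO clones, where it was lower (log2 fold change -7.12, adjusted p = 9.17e-05, edgeR). Ptprc was at 0.02 TPM in P4M replicate 3, where Kit was at 9.34 TPM. Kit and its ligand were both present in that clone, with Kitl at 17.4 TPM, the highest of the P4M clones.

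Foxc1 (ENSMUSG00000050295, chromosome 13, 31806633 to 31812476), a forkhead factor that sustains reticular cells, fell in both cKO groups. It was at 114, 177, 136, 169 and 276 CPM in WT replicates 1 to 5. It was at 99.6, 120.2, 100.1, 99.9 and 85.0 CPM in P28 replicates 1 to 5 and at 70.2, 58.8, 85.9 and 74.1 CPM in P4M replicates 1 to 4. All 4 P4M clones and 4 of the 5 P28 clones were below every WT clone. Foxc1 was the gene with the smallest spread, with an SD of log2 CPM of 0.18 in P28 and 0.23 in P4M. Against WT, Foxc1 was called lower in P28 (log2 fold change -0.79, SE 0.21, adjusted p = 0.00899, edgeR) and in P4M (-1.27, SE 0.23, adjusted p = 0.000667, edgeR). The call in P4M held in all 21 alternatives, with adjusted p up to 0.00484. That in P28 held in 20 of 21 and was lost with limma on log2(TPM + 1) (-0.44, adjusted p = 0.0929). P4M against P28 was -0.48 (SE 0.22, adjusted p = 0.186, edgeR), and it was called only when the WT clones were left out of the fit (adjusted p = 0.0385, edgeR), within a range up to 0.379.

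Ebf1 (ENSMUSG00000057098, chromosome 11, 44617317 to 45008091), which is also the B cell determination factor, was at 7.23, 7.46, 1.25, 17.0 and 37.1 CPM in WT replicates 1 to 5. It was at 43.5, 25.01, 38.6, 72.7 and 46.6 CPM in P28 replicates 1 to 5 and at 10.5, 10.6, 18.6 and 15.1 CPM in P4M replicates 1 to 4. In P28, 4 of 5 clones were above every WT clone, and every P4M clone was below every P28 clone. Ebf1 was called higher in P28 (log2 fold change 1.69, SE 0.62, adjusted p = 0.0444, edgeR). This call was marginal. Of the fits that left out 1 clone, it was kept only without WT replicate 3, WT replicate 5 or P28 replicate 2, and over 21 alternatives it was lost in 13, with adjusted p up to 0.102. P4M did not differ from WT by the test (-0.03, 95% interval -1.41 to 1.35). P4M against P28 was -1.72 (SE 0.67, adjusted p = 0.126, edgeR), and it was called in 3 of 21 alternatives, with an adjusted p of 0.00945 when the WT clones were left out of the fit and of up to 0.257 otherwise.

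Ebf3 (ENSMUSG00000010476, chromosome 7, 137193673 to 137314445) had 0, 3, 0, 0 and 25 counts in WT replicates 1 to 5. In P28 replicates 1 to 5 it was at 4.71, 3.63, 12.2, 3.59 and 1.92 CPM, all above the highest WT clone at 0.989 CPM. In P4M replicates 1 to 4 it was at 0.254, 0.228, 8.49 and 0.150 CPM, so 1 clone was above every WT clone and 3 were below every P28 clone. Ebf3 was called higher in P28 (log2 fold change 4.58, SE 1.504, adjusted p = 0.0277, edgeR). Ebf3 passed the filter mainly through the P28 clones, with 1 WT, 5 P28 and 2 P4M clones over the filter level. The call was lost without WT replicate 2 (adjusted p = 0.0588, edgeR), WT replicate 3 (0.0527), WT replicate 4 (0.0524) or P28 replicate 3 (0.0603, the highest over 20 alternatives), and without WT replicate 5 the log2 fold change was 7.46. Ebf3 was not called in P4M by edgeR (3.39, SE 1.48, adjusted p = 0.0759) but was by DESeq2 (adjusted p = 0.0344). That value rested on P4M replicate 3, without which the log2 fold change was -0.02, and on WT replicate 5, without which it was 6.27 (adjusted p = 0.0100, edgeR; the range over the alternatives reached 0.991). In all cKO clones Ebf3 was called higher (3.99 on the log2 scale, SE 1.41, adjusted p = 0.0319, edgeR). It was 2.28 without P4M replicate 3 (adjusted p = 0.0937, edgeR, the highest over the alternatives) and 6.87 without WT replicate 5, and the call was also lost without WT replicates 1 to 4 in turn and without a filter (adjusted p = 0.0528, edgeR). The antisense gene Gm45278 shares 355 exonic bases with Ebf3, 3.85% of its exons.

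Ebf2 (ENSMUSG00000022053, chromosome 14, 67233292 to 67430918) was near the limit of detection. It had 1 count in WT replicate 4 and 0 in the other WT clones, 7, 4, 18, 2 and 9 counts in P28 replicates 1 to 5, and 2, 6, 17 and 11 counts in P4M replicates 1 to 4. All 9 cKO clones had more counts than any WT clone, but the cKO libraries were mostly deeper. The 0 counts of WT replicates 1, 2, 3 and 5 allow up to 3 counts, or 0.0977 to 0.121 CPM. P28 replicates 2 and 4 (0.0956 and 0.0403 CPM) and P4M replicate 1 (0.0461 CPM) were below that, so counting alone cannot tell these clones from WT. The permutation p values below follow from the full separation and do not include counting error. Per read sequenced, P28 held 26.8 times the WT counts (95% counting interval 4.54 to 1085) and P4M 27.2 times (4.58 to 1104). On log2(CPM + 0.1) the difference from WT was 1.27 in P28 (two-sided exact permutation p = 0.00794) and 1.31 in P4M (exact permutation p = 0.0159), each the smallest p these group sizes allow. Over all 9 cKO clones it was 1.29 (exact permutation p = 0.000999, also the smallest possible). P4M and P28 differed by 0.04 (exact permutation p = 0.984). The antisense gene Gm10860 shares 424 exonic bases with Ebf2, 6.12% of its exons, so a part of these few counts may belong to it.

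**Figure D2:**
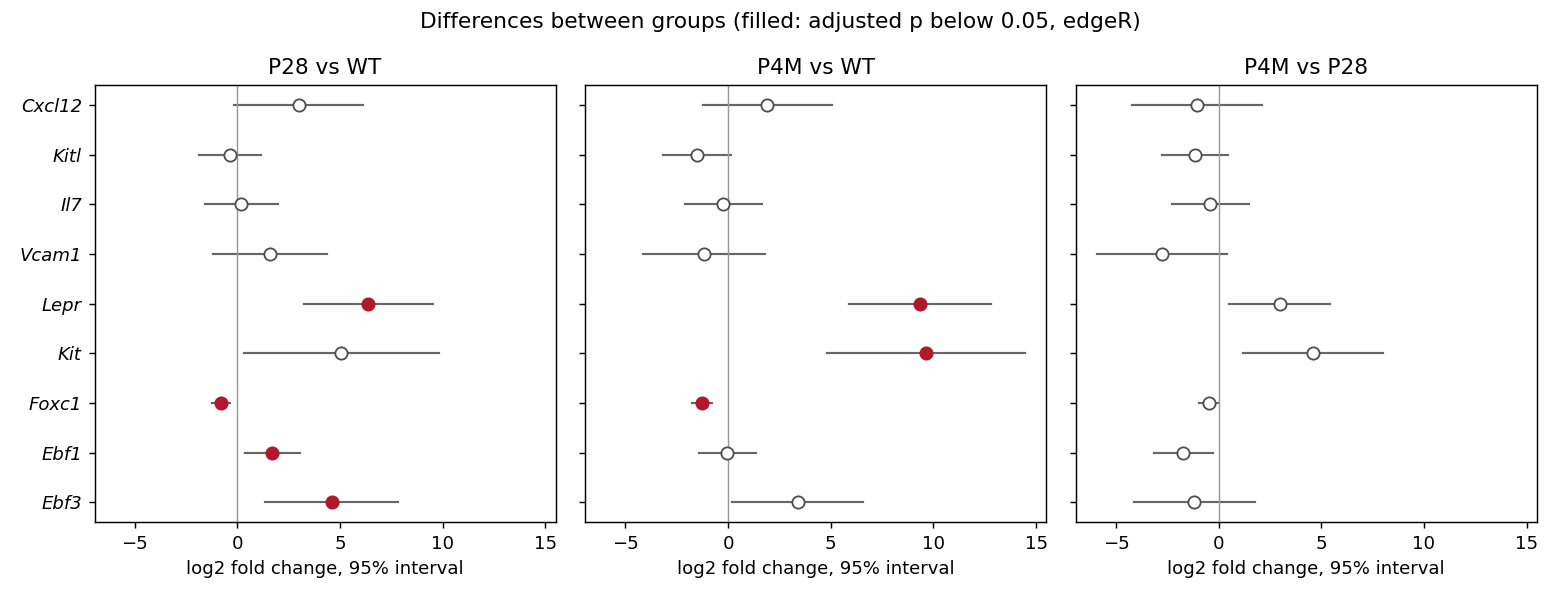
Log2 fold change of the 9 tested genes (horizontal axis) with its 95% interval in P28 against WT, P4M against WT and P4M against P28, from edgeR over all genes. Filled points have an adjusted p below 0.05. Foxc1 has the narrowest interval, and no gene is filled in P4M against P28.

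The window around the transcription start is shown for the genes called higher in all cKO clones against WT, namely Lepr, Kit and Ebf3, and for Cxcl12, the most abundant of the 10 genes in the cKO clones. RefSeq (GRCm38.p6) windows of 300 bases were at hand for 7 of the 10 genes, and Ebf2, Il7 and Vcam1 had none. Each runs 5′ to 3′ on the gene's strand. Capitals mark the EBF core, CCCNNGGG, which reads the same on both strands.
Lepr, chr4:101717157-101717456, plus strand: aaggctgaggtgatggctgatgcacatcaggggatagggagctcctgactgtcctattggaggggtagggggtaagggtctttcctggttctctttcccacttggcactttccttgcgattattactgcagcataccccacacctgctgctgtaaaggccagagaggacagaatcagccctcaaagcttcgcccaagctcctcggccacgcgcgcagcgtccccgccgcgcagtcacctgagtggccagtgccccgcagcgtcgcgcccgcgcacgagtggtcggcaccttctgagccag
Kit, chr5:75574737-75575036, plus strand: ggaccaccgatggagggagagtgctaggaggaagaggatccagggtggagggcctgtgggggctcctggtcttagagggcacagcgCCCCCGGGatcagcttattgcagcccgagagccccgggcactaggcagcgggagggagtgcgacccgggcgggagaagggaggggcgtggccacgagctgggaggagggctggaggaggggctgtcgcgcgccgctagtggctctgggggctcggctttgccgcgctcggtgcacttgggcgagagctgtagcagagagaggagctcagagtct
Ebf3, chr7:137314396-137314695, minus strand: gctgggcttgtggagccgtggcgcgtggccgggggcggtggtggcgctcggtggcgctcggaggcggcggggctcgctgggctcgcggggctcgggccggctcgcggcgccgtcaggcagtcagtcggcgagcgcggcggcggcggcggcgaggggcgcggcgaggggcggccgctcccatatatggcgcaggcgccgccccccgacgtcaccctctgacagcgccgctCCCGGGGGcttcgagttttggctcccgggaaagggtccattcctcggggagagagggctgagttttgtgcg
Cxcl12, chr6:117168285-117168584, plus strand: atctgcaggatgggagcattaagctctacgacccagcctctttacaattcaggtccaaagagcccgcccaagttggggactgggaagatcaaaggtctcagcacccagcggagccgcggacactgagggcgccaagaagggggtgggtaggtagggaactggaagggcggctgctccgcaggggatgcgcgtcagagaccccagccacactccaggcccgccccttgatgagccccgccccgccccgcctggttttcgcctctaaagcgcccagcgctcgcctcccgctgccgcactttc
The EBF core was found in the windows of Kit, starting at -164 from the transcription start, and of Ebf3, at -21. Of 32851 mouse promoter windows of the same length, 13.7% held it. The GC box, GGGCGG on either strand, was found 5 times in the window of Cxcl12, and 35.7% of all windows held it at least once. It was also found in the windows of Ebf3, Kitl, Kit and Foxc1, and in another window of Lepr that is not shown. Another window of Kit, also not shown (75574741 to 75575040), overlapped nearly all of the first and held the same EBF core and GC box. Kitl held TATAAA at -25, as did 13.6% of all windows anywhere in their length. The FOX core GTAAACA (3.65% of all windows), the GATA site AGATAA (11.2%) and the p53 half-site (8.36%) were not found in these windows of the 7 genes.

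On the length-normalised TPM scale, the order of the 10 genes differed between groups. In WT, Foxc1 was the highest by its median level (35.1 TPM), followed by Kitl (22.8 TPM), Vcam1 (6.88 TPM) and Ebf1 (2.5 TPM). The ranges of Kitl, 2.63 to 37.4 TPM, and of Vcam1, 1.58 to 28.1 TPM, overlapped widely with their neighbours in this order. In P28, Cxcl12 was first (median 297.5 TPM, higher than 97.3% of the genes tested), and its lowest clone, at 234.4 TPM, was above the highest clone of every other gene. Foxc1 (29.4 TPM), Kitl (20.3 TPM), Ebf1 (14.5 TPM) and Vcam1 (14.5 TPM) followed with overlapping ranges, and Lepr was sixth (2.94 TPM). In P4M, Cxcl12 was again first (93.5 TPM), followed by Foxc1 (18.5 TPM), Lepr (15.5 TPM) and Kitl (5.14 TPM), and the range of Lepr spanned 0.09 to 44.0 TPM. Kit was eighth in P4M (median 0.75 TPM) and Ebf2 was at most 0.15 TPM in any clone. Apart from replicate 5, the WT clones thus held Foxc1 and Kitl with at most 20.9 TPM of Cxcl12 and at most 0.07 TPM of Lepr.

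**Figure D3:**
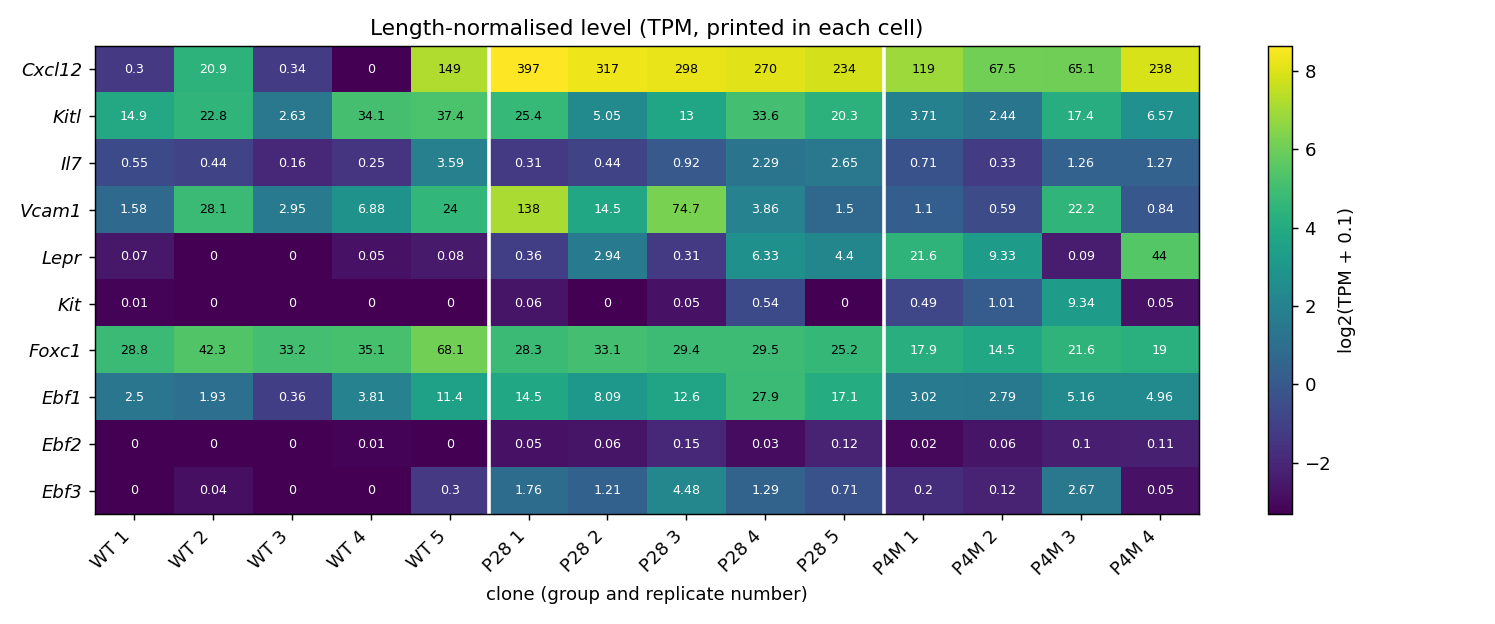
TPM of the 10 genes (rows) in the 14 clones (columns), coloured by log2(TPM + 0.1), with the TPM value in each cell and white lines between the groups. Cxcl12 is the brightest row in all 9 cKO clones, and P4M replicate 3 is the P4M clone with 9.34 TPM of Kit and 22.2 TPM of Vcam1.

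Within groups the genes did not vary as 1 block. P4M replicate 3 held the lowest Lepr and the highest Kit, Kitl, Vcam1, Ebf1, Ebf2, Ebf3 and Foxc1 of the P4M clones. Lepr and Vcam1 also ran opposite to each other in P28, where replicates 1 and 3 had the most Vcam1 and the least Lepr. Over all 14 clones, with each group centred on its mean log2 CPM, Pearson's r between Lepr and Vcam1 was -0.67, and -0.51 without P4M replicate 3. Kitl and Ebf1 varied together, with an r of 0.85 that was 0.88 without that clone. Vcam1 and Ebf3 had an r of 0.76 (0.65 without it). Kit and Kitl had an r of 0.34, which was 0.10 without it. These correlations describe clones that share a group, a depth and a submission, and carry no test. They were taken from all pairs of the genes and include the most negative and the highest r. Among the pairs left out, Foxc1 and Ebf3 had an r of 0.72 (0.77 without P4M replicate 3).

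**Figure D4:**
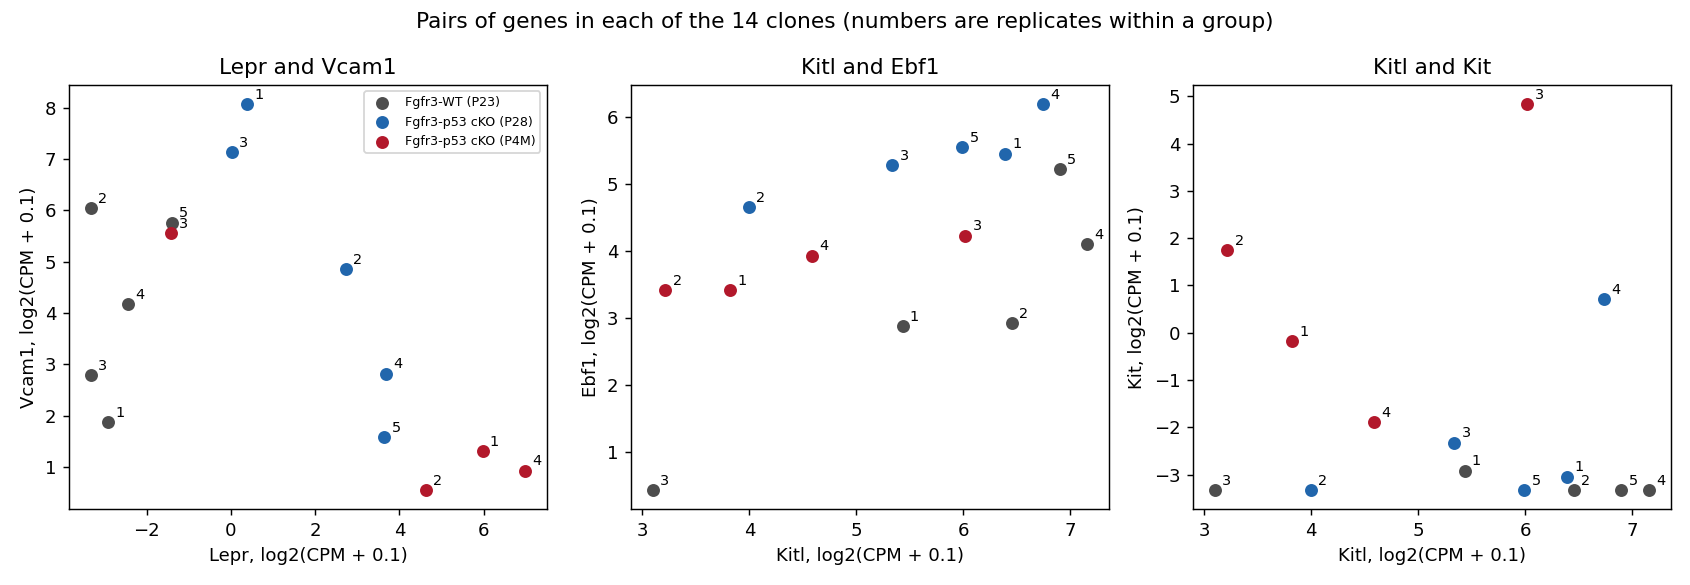
Lepr against Vcam1, Kitl against Ebf1 and Kitl against Kit in each of the 14 clones, on log2(CPM + 0.1) axes, with points coloured by group and numbered by replicate. In the cKO clones high Lepr goes with low Vcam1, Kitl and Ebf1 rise together, and the highest Kit is in P4M replicate 3.

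The genes whose within-group pattern was most like that of each member were found by the same centred correlation over 14 clones. They were Olfml2b for Cxcl12 (r = 0.96), Ttc9c for Lepr (0.96), Tubb4b for Il7 (0.95), Tspan9 for Vcam1 (0.94), Dynlrb1 for Foxc1 (0.94), Herc4 for Ebf1 (0.94), Hacd4 for Kitl (0.91), Cebpa for Kit (0.90) and Trak1 for Ebf3 (0.89). Each was the highest of 13217 genes compared (13218 for Kit and Ebf3), and no test was made.

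Partners of these genes were described from lists of their pathways, in all cKO clones against WT, where 48.8% of all genes tested were called. Of 17 genes of stem cell factor and KIT signalling, 5 were higher and 1 was lower. Those with the lowest adjusted p were Lyn, a Src family kinase (log2 fold change 3.63, SE 0.59, adjusted p = 0.000291, edgeR), and Pik3r1, the regulatory subunit of phosphoinositide 3-kinase (1.03, SE 0.18, adjusted p = 0.000420, edgeR). Of 5 upstream regulators of Kit tested, Lyl1 was higher and Mitf (-1.55, SE 0.26, adjusted p = 0.000383, edgeR) and Ldb1 (-0.82, adjusted p = 0.00186, edgeR) were lower. Mitf drives Kit in mast cells and melanocytes. Of 11 genes of the VCAM1 axis, 5 were higher. They were the integrin subunits Itga9 (5.23, adjusted p = 0.000621) and Itgb1 (0.64, adjusted p = 0.00213), which bind VCAM1, and 3 NF-κB genes. The list had a median log2 fold change of 0.46, beside -0.05 for all genes tested. Of the CXCL12 axis, the receptors Cxcr4 (1.80, adjusted p = 0.118, edgeR) and Ackr3 (-0.37, adjusted p = 0.712, edgeR) were tested and not called. Cxcr4 was higher in P4M against WT (2.95, SE 0.99, adjusted p = 0.0267, edgeR).

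Of 8 genes tested of the leptin receptor axis, 2 were higher and 1 was lower, with Ptpn2 (0.80, adjusted p = 0.000118, edgeR), a phosphatase that dampens JAK signalling, and Sh2b1 (-0.73, adjusted p = 0.00373, edgeR), an adaptor that binds JAK2, in opposite directions. Jak2, the kinase of the receptor, was higher in P4M than in P28 (1.19, SE 0.25, adjusted p = 0.0157, edgeR). Of 7 genes tested of the interleukin 7 axis, 1 was higher and 3 were lower, among them Crlf2 (-1.18, adjusted p = 0.000131, edgeR) and Stat5a (-0.98, adjusted p = 0.000625, edgeR). Of 6 tested partners of EBF and FOXC factors, Foxf2 was higher (1.34, adjusted p = 0.0150, edgeR), and Zfp521, which represses EBF1, was lower in P4M than in P28 (-2.77, SE 0.63, adjusted p = 0.0222, edgeR).

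Other niche factors moved both ways. Of 16 tested, 3 were higher and 4 were lower, with Bmp4 (6.48, SE 0.96, adjusted p = 0.000159, edgeR) and Angpt1, the TIE2 ligand (-3.64, SE 0.91, adjusted p = 0.00522, edgeR), at the lowest adjusted p. Igf1 was lower in P4M than in P28 (-7.12, SE 1.67, adjusted p = 0.0254, edgeR). Of 23 other reticular and pre-adipocyte genes, 1 was higher and 9 were lower, with a median log2 fold change of -0.85 beside -0.05 for all genes. Chrdl1, an antagonist of bone morphogenetic proteins, fell by 5.97 (SE 1.36, adjusted p = 0.00296, edgeR) and Lpl, lipoprotein lipase, fell by 2.37 (SE 0.54, adjusted p = 0.00302, edgeR) on the log2 scale. Cebpb was the gene that rose, and it was also higher in P4M than in P28 (1.18, SE 0.23, adjusted p = 0.0130, edgeR).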

How the data were processed

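Bulk RNA-seq tables of 14 cultured clones were used, made with the SMART-Seq v4 kit. By the methods and the submitters' processing notes, the authors ran FastQC, mapped the reads (single-end) with TopHat and Bowtie2 against mm10, and counted non-ambiguous reads with HTSeq. The deposited counts are whole numbers for 30503 genes, with no normalization. The TPM values, as the authors deposited them, are scaled per gene length and library, and the program that made them is not given in the sources used here. The other deposited tables (expected counts, FPKM, normalized and regularized log counts) were not used.

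Counts were matched by Ensembl ID and TPM values by symbol. In R 4.3.3, edgeR 4.0.16 kept 17358 genes by filterByExpr with the 3 groups, scaled libraries by TMM and fitted all 14 clones in 1 robust quasi-likelihood model without a batch term, since submission and genotype coincide. Genes were called at a Benjamini-Hochberg adjusted p below 0.05 over all genes tested. CPM values use the TMM scaling. Intervals are at 95% and, for counting ratios, cover counting error only, because amplified reads are not independent molecules. Ebf2, which did not pass the filter, was compared by exact permutation tests on log2(CPM + 0.1) in Python 3.11.15 with scipy 1.17.1. The fits were tested on simulated data.

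Alternatives were DESeq2 1.42.0 (with automatic outlier handling, which gave no p for Cxcl12), RLE or no scaling, no filter, at least 10 counts in every clone, a minimum absolute log2 fold change of 1, a fit of only the groups compared, limma 3.58.1 on log2(TPM + 1), a pseudocount of 1 CPM for Ebf2, and leaving out each clone. The 10 genes, the pathway lists and the marker lists were chosen with earlier results of these data known. All 10 genes are named. Of each pathway list, those called in all cKO clones against WT with the 2 lowest adjusted p values and that called in P4M against P28 with the lowest are named, and any other gene was chosen after its values were seen. Gene positions and overlaps come from GENCODE M21.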

Additional observations from a re-analysis of the deposited data

Results flagged for a closer look

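In each group, the highest and lowest clone of each gene was set against the others by Dixon's ratio, the gap to the nearest clone over the range of the group, on log2 CPM with a prior count of 2. Of 30 gene and group pairs, 5 exceeded the 95% critical value. For normally distributed values chance alone exceeds it in about 1 of 20 groups, but counts near the floor are not so distributed. The ratio was not computed for the other genes, so whether these genes hold more outliers than others was not tested. On linear CPM, a scale added after seeing the data, 10 pairs exceeded it, these 5 and also Kit in P28 and P4M, Ebf3 in WT and P28, and Cxcl12 in WT. In P4M replicate 3, Vcam1 (47.1 CPM, ratio 0.846) and Ebf3 (8.49 CPM, ratio 0.889) were far above the other 3 P4M clones. This clone also had the lowest Lepr and the highest Kit of its group, and the calls that change without it are given beside each gene. In WT replicate 5, Il7 (6.06 CPM, ratio 0.743) was far above the other WT clones, and the same clone held the highest Cxcl12, Ebf1, Ebf3 and Foxc1 of its group. Kit in WT replicate 1 and Ebf2 in WT replicate 4 each had a ratio of 1, which stands for 1 count in a group otherwise at 0.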

How the results depend on the processing

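No paired analysis was possible because the replicate numbers are running numbers given in accession order and do not tie clones of different groups to each other. Of 764 fold changes of the 9 tested genes under the alternatives, 686 kept their direction and their side of the threshold, 27 lost a call, 20 gained one and 31 changed sign. With at least 10 counts in every clone, 4 of the 10 genes were tested, and 2 were called in P28, 1 in P4M and 1 in all cKO clones against WT. DESeq2 called 5 genes in P4M against WT, and 2814 of all genes in P4M against P28. With only the groups compared, 3051 genes and 2 of the members (Foxc1 and Ebf1) were called in P4M against P28, and limma on TPM called 1. A minimum absolute log2 fold change of 1 left 4040 genes in P28, 5149 in P4M and 4723 in all cKO clones against WT, and it ended the call of Foxc1 in P28. The sign changed for Ebf1 in P4M against WT without a filter (0.0442) and with limma (0.34), for Il7 in P4M with limma (0.11), for Il7 in all cKO clones without scaling (0.0225), without a filter (0.0331), with only the groups compared (0.0062) and with limma (0.21), and for Vcam1 in all cKO clones with limma (-0.18). None of these was called before or after, and the cause was not tested.

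Leaving out each clone in turn gave 5805 to 7253 genes and 2 to 6 of the 9 members in P28 against WT, 6799 to 8454 and 2 to 5 in P4M against WT, 480 (without P4M replicate 1) to 2132 (without WT replicate 1) and 0 to 1 in P4M against P28, and 7668 to 8744 and 3 to 6 in all cKO clones against WT. The log2 fold change of Il7 ranged from -0.20 to 1.74 in P28, from -0.49 to 1.33 in P4M and from -0.29 to 1.54 in all cKO clones. That of Ebf1 ranged from -0.33 to 0.73 and that of Ebf3 from -0.0250 to 6.27 in P4M, and that of Vcam1 from -1.20 to 0.74 in all cKO clones. The difference of Ebf2 ranged from 1.05 to 1.48 in P28, from 1.06 to 1.59 in P4M and from 1.18 to 1.40 in all cKO clones against WT, and from -0.20 to 0.32 in P4M against P28. Depth limited how precisely Kit, Ebf2, Lepr and Ebf3 could be measured in WT, where most clones had 0 to 3 counts.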
